A study of Mus musculus with 67 samples.

Results

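The Sall (spalt-like) family comprises Sall1, Sall2, Sall3 and Sall4, which were taken by gene name from the RNA-seq tables of mouse forelimb buds and make up 4 of the 46983 gene IDs listed. The study examined when the transcription factor GLI3 begins to repress Hedgehog (HH) target genes, and compared limb buds with and without Gli3 at a pre-HH and a post-HH stage. Of its libraries, 14 hold RNA: whole forelimb buds at E9.25 (21 to 23 somites), WT (n = 3) and Gli3-/- (n = 4), and the anterior part of forelimb buds at E10.5 (32 to 35 somites), WT (n = 4) and Gli3-/- (n = 3). Gli3-/- embryos were homozygous for Gli3 Xt-J, an intragenic deletion carried on a Swiss Webster background and present in every cell of the embryo from the start. By the sample labels, 4 bud pairs (E9.25) or 2 bud pairs (E10.5) were pooled for a library. The methods text describes pools of like size at both stages, so that the pool size at E10.5 is uncertain. Since whole buds were taken at E9.25 and anterior buds at E10.5, stage and dissected region cannot be told apart in any comparison between stages.

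SALL proteins are zinc finger transcription factors that bind AT-rich DNA through clustered pairs of zinc fingers, and several of them recruit the NuRD histone deacetylase complex through a short motif at the amino terminus. Sall4 is known for its part in embryonic stem cells and early progenitors, and its loss in humans affects the radial side of the arm. SALL1 mutations cause Townes-Brocks syndrome, with malformed thumbs, ears and kidneys, and mouse Sall1 and Sall3 act redundantly in the distal limb. Sall2 is the most diverged member and has been linked to eye development and to growth control.

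Estimated depth was 38.1 to 56.8 M reads per library, and a TPM (a normalized level per transcript length that shares out an equal total in every library) of 1 equals 20.7 to 29.3 reads per kilobase. All 4 members were at a TPM of at least 1 in all 14 libraries and passed the filter of every comparison. Gli3 itself was at a TPM of 44.2, 15.8 and 44.6 in E9.25 WT replicates 1 to 3, against 14.3 to 20.8 in E9.25 Gli3-/- libraries. The library labelled E9.25 WT replicate 2 therefore lay within the mutant range for Gli3. It also had the fewest reads (38.1 M) and the fewest genes at a TPM of 1 or more (13276). Other genes, picked after their values were seen, differed. Ptch1 was at 2.48 to 8.08 in the E9.25 WT libraries, this one included, against 21.4 to 38.5 in Gli3-/- libraries. Fgf8 was at 40.3 to 71.1 against 17.6 to 36.6, while Hand1 overlapped (5.04 to 24.6 against 20.55 to 79.1). Whether the label is right was not tested. At E10.5 Gli3 was at 73.4 to 89.7 in WT and at 38.7 to 40.9 in Gli3-/- libraries. Means, shares and fold changes of the Sall genes and counts over gene lists that use this doubted library are given with and without it. Profile likeness was computed over all 14 libraries.

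On the gene tables' coordinates, Sall1 (ENSMUSG00000031665.6) spans chromosome 8, 89027248 to 89044162, Sall2 (ENSMUSG00000049532.10) chromosome 14, 52311172 to 52328762, Sall3 (ENSMUSG00000024565.8) chromosome 18, 80966376 to 80986578, and Sall4 (ENSMUSG00000027547.17) chromosome 2, 168748332 to 168767943. All 4 lie on the minus strand and on different chromosomes. Each span overlapped the RefSeq gene of the same symbol in GRCm38.p6. Gm27238 overlaps Sall3 on the same strand, and Gm14261 overlaps Sall4 on the opposite strand. Whether reads were assigned by strand is not given in the sources used here, so that reads in these overlaps cannot be told apart.

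Across the 4 groups, no single member was highest throughout. In E9.25 WT buds Sall4 led at a mean TPM of 33.2 ± 7.81 (SD, n = 3), followed by Sall2 at 15.3 ± 3.95, Sall1 at 12.3 ± 4.37 and Sall3 at 8.56 ± 1.98. Sall4 lay above Sall2 with no overlap between libraries, while the ranges of Sall2 and Sall1, and of Sall1 and Sall3, overlapped. E9.25 Gli3-/- buds had nearly the same order, with Sall4 at 48.4 ± 11.6 (SD, n = 4) and Sall2 (19.8 ± 4.14) and Sall1 (19.6 ± 4.51) side by side above Sall3 (13.6 ± 3.78). Without the doubted library, the E9.25 WT means over the other 2 were 36.8 for Sall4, 17.4 for Sall2, 14.8 for Sall1 and 9.65 for Sall3, in the same order. In E10.5 WT anterior buds Sall2 was highest at 30.8 ± 3.62 (SD, n = 4), above Sall4 (18.0 ± 3.35) in 4 of 4 libraries, and Sall3 was lowest at 9.46 ± 1.55. In E10.5 Gli3-/- anterior buds Sall1 had the highest mean at 44.1 ± 11.3 (SD, n = 3), followed by Sall4 (32.7 ± 0.74), Sall2 (30.7 ± 5.34) and Sall3 (29.9 ± 3.29). The ranges of neighbors in this order overlapped, that of Sall1 (33.49 to 55.9) also with those of Sall4 (up to 33.54) and Sall2 (up to 36.4), although Sall1 was above Sall4 in 3 of 3 libraries.

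**Figure D1:**
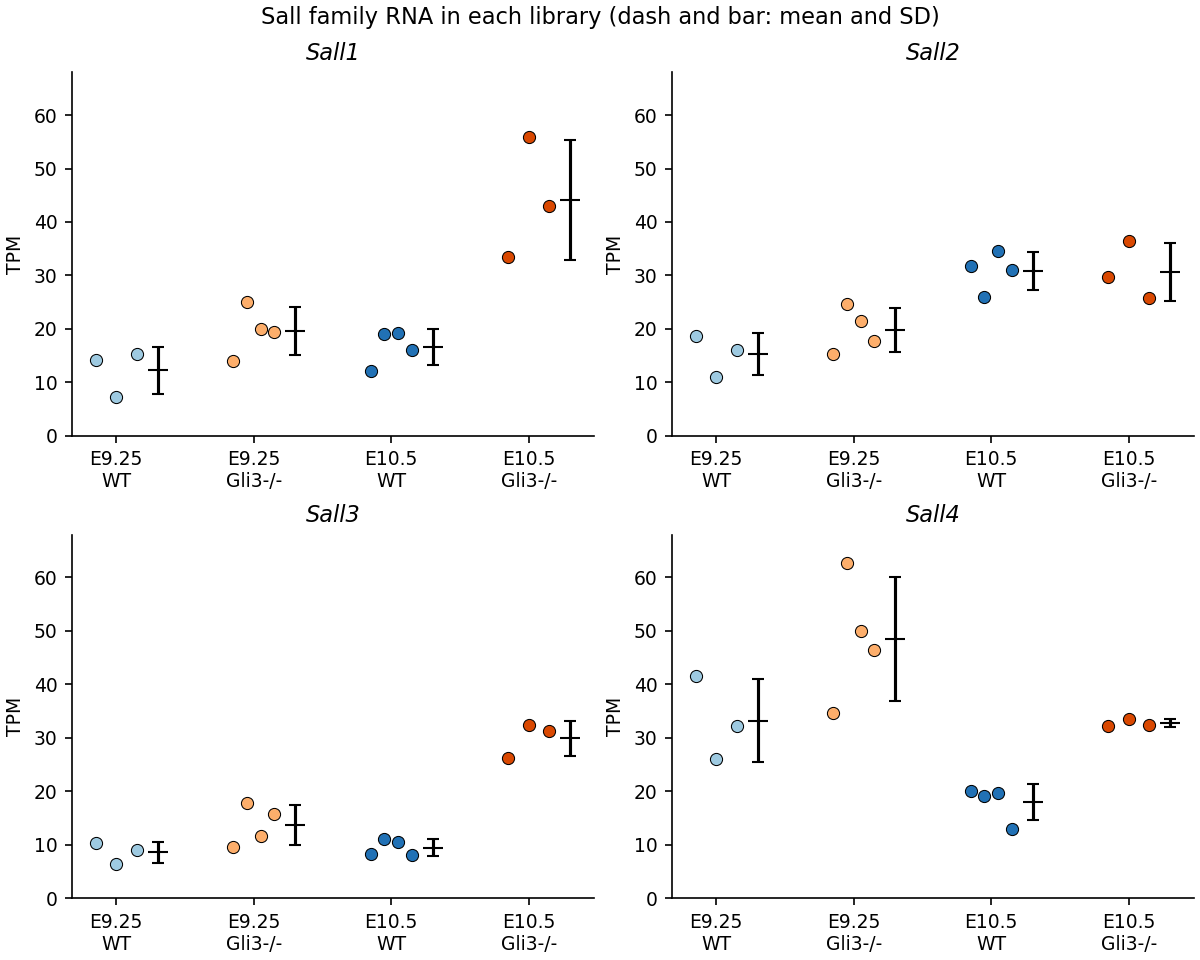
TPM of Sall1, Sall2, Sall3 and Sall4 (y axis, linear, from 0) in each library of the 4 groups, with each point a library and the dash and bar the group mean and SD. E10.5 Gli3-/- libraries stand above all E10.5 WT libraries for Sall1, Sall3 and Sall4, while the 2 genotypes overlap for Sall2.

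The share of each member in the summed Sall TPM does not depend on how a library was scaled. In whole E9.25 buds Sall4 held 48.2% of the sum in WT and 47.6% in mutants, and it held 24.0% in both E10.5 groups. Sall2 went from 22.0% in E9.25 WT to 41.3% in E10.5 WT buds, but stood at 22.3% in E10.5 Gli3-/- buds. Sall1 held 22.2% in E10.5 WT against 31.8% in E10.5 Gli3-/- buds, and Sall3 12.6% against 21.9%. Among the 4 E9.25 Gli3-/- libraries the share of Sall1 stayed between 19.1% and 19.5%, although its TPM ranged from 14.0 to 25.0. The summed TPM itself averaged 69.3 ± 17.2 (SD, n = 3) and 101.5 ± 23.3 (n = 4) at E9.25, and 74.9 ± 6.78 (n = 4) and 137 ± 18.7 (n = 3) at E10.5, in WT and Gli3-/- buds respectively. Leaving out the doubted library gave E9.25 WT shares of 46.6% for Sall4, 22.2% for Sall2, 18.9% for Sall1 and 12.3% for Sall3, and a sum of 78.6 TPM. In bulk tissue, fewer cells expressing a gene and less RNA per cell cannot be told apart.

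**Figure D2:**
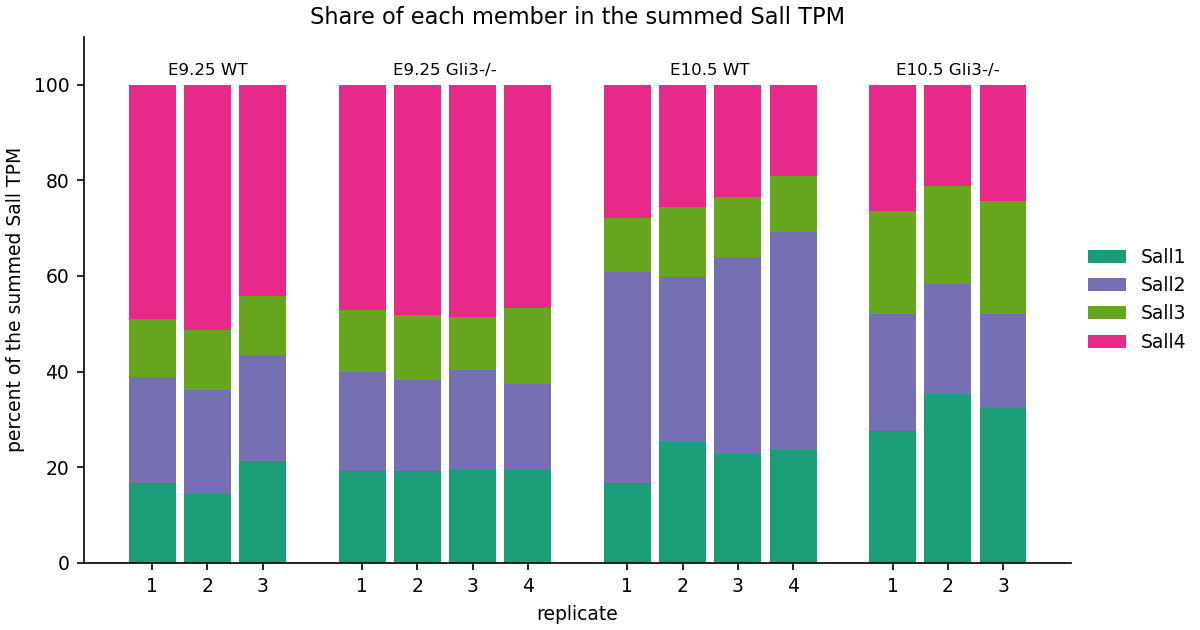
Stacked bars give the percent of the summed Sall TPM held by each member (y axis, 0 to 100) in each of the 14 libraries, grouped by stage and genotype. Sall4 takes 44.2% to 51.3% in every E9.25 library, and Sall2 shrinks between E10.5 WT (34.5% to 45.5%) and E10.5 Gli3-/- (19.5% to 24.5%).

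The first comparison asked whether loss of Gli3 changes Sall RNA in the anterior limb bud after HH signaling has begun. Sall1, Sall3 and Sall4 were upregulated in E10.5 Gli3-/- anterior buds, and Sall2 did not pass the test. Sall3, a partner of Sall1 in distal limb growth, had the largest change. It was at a TPM of 8.21, 11.0, 10.6 and 8.03 in WT and 26.2, 32.3 and 31.3 in Gli3-/- libraries. The genotypes did not overlap, and the lowest mutant library was above the highest WT library by a wide margin. The log2 fold change of Sall3 was 1.57 with a standard error (SE) of 0.13 (limma adjusted p = 0.000424), a 3.16-fold ratio of mean TPM. Sall1, the Townes-Brocks gene, was at 12.1, 19.0, 19.2 and 16.2 in WT and 33.5, 55.9 and 43.0 in Gli3-/- libraries. All 3 mutant libraries were again above all 4 WT libraries, with more spread among the mutants than for Sall3. Its log2 fold change was 1.35 (SE 0.19, limma adjusted p = 0.00474), a 2.65-fold ratio.

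Sall4, the early progenitor factor, was at 20.1, 19.2, 19.7 and 12.98 in WT and 32.2, 33.5 and 32.3 in Gli3-/- libraries at E10.5. The groups did not overlap, and WT replicate 4 was the low library. The log2 fold change was 0.85 (SE 0.14, limma adjusted p = 0.0101), or 0.71 (adjusted p = 0.00367) without that library. Sall4 did not pass when genes were tested without a filter on low TPM (log2 fold change 0.85, limma adjusted p = 0.0533). Sall2 was at 31.7, 25.9, 34.7 and 31.01 in WT and 29.8, 36.4 and 25.8 in Gli3-/- libraries, so that both the highest and the lowest library were mutants. Its log2 fold change was -0.01, with a 95% interval from -0.30 to 0.28 (limma adjusted p = 0.967). The interval leaves out changes as large as those of the other 3 members, and the lower bounds for Sall1 (0.92), Sall3 (1.27) and Sall4 (0.53) lie above it.

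Of the 4 members, 3 were upregulated and 0 downregulated, against 1.84% of the 15654 genes tested upregulated and 2.93% downregulated. Ordered from the largest increase down, Sall3 stood at place 25, Sall1 at 35, Sall4 at 151 and Sall2 at 7575. The median tested gene had a log2 fold change of -0.02, so that these values are nearly the same relative to it. With each of the 7 libraries left out in turn, the log2 fold change stayed between 1.504 and 1.66 for Sall3, between 1.16 and 1.53 for Sall1 and between 0.71 and 0.90 for Sall4, and all 3 passed each time.

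**Figure D3:**
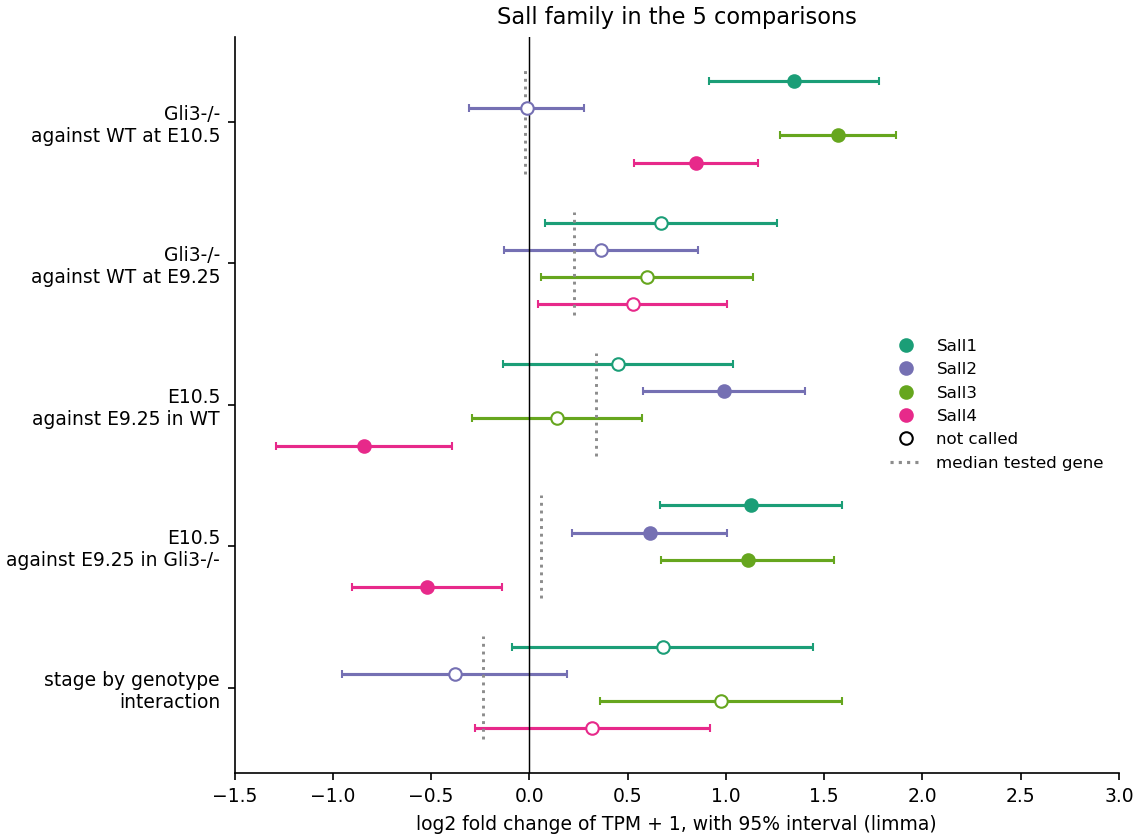
Points give the limma log2 fold change of each member in the 5 comparisons and bars its 95% interval, filled where the gene passed an adjusted p of 0.05. Dotted lines mark the median tested gene. At E10.5 the intervals of Sall1, Sall3 and Sall4 lie wholly to the right of that of Sall2.

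The same comparison in whole E9.25 buds addressed the stage before HH signaling. None of the 4 members passed the test, while 0.136% of 14760 genes did, and 3 of the 4 (Sall1, Sall3 and Sall4) had an unadjusted limma p under 0.05, as did 3247 genes in all. Sall1 was at a TPM of 14.1, 7.28 and 15.4 in WT and 14.0, 25.0, 19.98 and 19.4 in Gli3-/- libraries. Sall3 was at 10.3, 6.39 and 9.05 in WT and 9.48, 17.7, 11.5 and 15.8 in Gli3-/- libraries. For both genes 3 of the 4 mutant libraries were above all WT libraries, and mutant replicate 1 lay among them. Sall4 was at 41.5, 26.0 and 32.1 against 34.5, 62.7, 50.0 and 46.4, with the same overlap. Sall2 was at 18.7, 11.0 and 16.1 against 15.3, 24.7, 21.5 and 17.8, with 2 of the 4 mutant libraries above all WT libraries. The library labelled WT replicate 2 was the lowest of all 7 for every member, Gli3-/- replicate 2 was the highest for every member, so that the members shared these extremes.

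The log2 fold changes at E9.25 were 0.67 for Sall1 (95% interval 0.08 to 1.26), 0.60 for Sall3 (0.06 to 1.14), 0.53 for Sall4 (0.04 to 1.01) and 0.37 for Sall2 (-0.13 to 0.86), with limma adjusted p-values of 0.217, 0.219, 0.22 and 0.306. The median tested gene was itself 0.23 higher in Gli3-/- buds, and relative to it the changes were 0.44, 0.37, 0.30 and 0.14. With that doubted WT library left out, the log2 fold changes before this subtraction were 0.36, 0.42, 0.37 and 0.16, with upper bounds of 0.84, 0.96, 0.86 and 0.62, and all 4 intervals include 0. The median gene was then 0.14 higher, and relative to it the 4 changes were 0.22, 0.28, 0.23 and 0.02. The test of the difference itself, the interaction of stage and genotype over 14 libraries, passed for 0 of 4 members, against 2.13% of 16368 genes. The change with loss of Gli3 was larger at E10.5 by 0.97 for Sall3 (SE 0.29, limma adjusted p = 0.0966), by 0.68 for Sall1 (adjusted p = 0.276) and by 0.32 for Sall4 (adjusted p = 0.489), and smaller for Sall2 (-0.38, adjusted p = 0.394). The median gene had an interaction of -0.24. Leaving out the doubted library gave 1.15 for Sall3 (limma adjusted p = 0.0635), 0.99 for Sall1 (adjusted p = 0.151), 0.48 for Sall4 and -0.17 for Sall2, and 0 of 4 passed, against 1.33% of all genes. Sall3 passed with quantile normalization (1.36, limma adjusted p = 0.00767), with median-of-ratios size factors (1.21, adjusted p = 0.0200) and with sample quality weights (1.01, adjusted p = 0.0328), but not in any of the 14 leave-one-out fits.

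**Figure D4:**
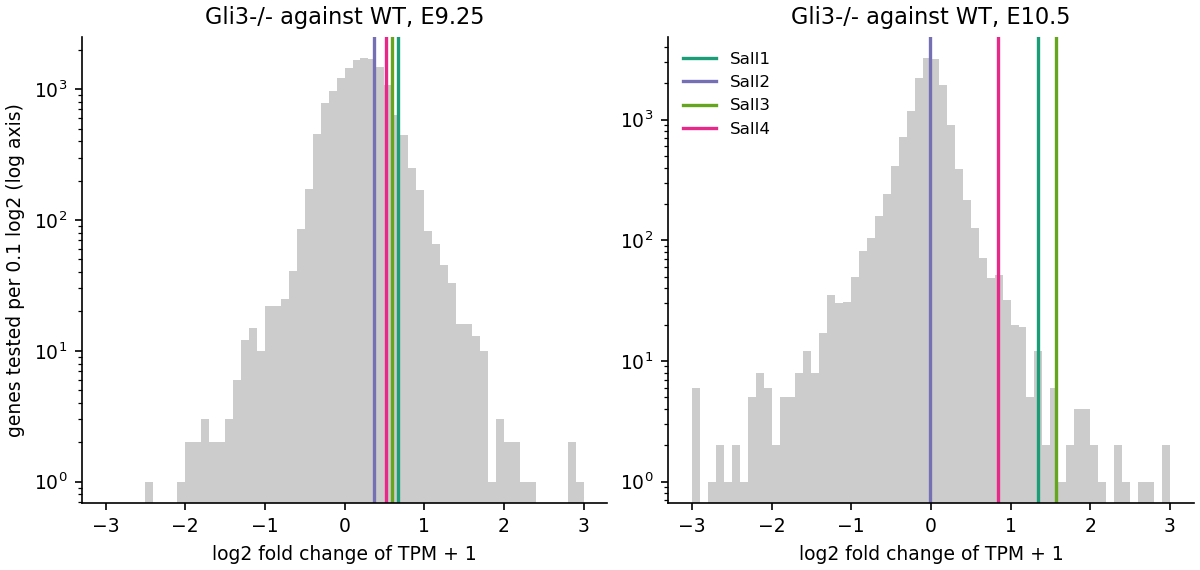
Histograms of the log2 fold change with loss of Gli3 over all genes tested at E9.25 (left) and E10.5 (right), with the number of genes on a log axis, values beyond 3 in either direction drawn in the end bins, and a line for each member. At E9.25 the 4 lines lie within the bulk of genes, between 0.37 and 0.67, and at E10.5 Sall1 and Sall3 lie in the upper tail while Sall2 lies at its center.

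Between E9.25 and E10.5 in WT buds, Sall2 and Sall4 changed in opposite directions. Sall2 was at a TPM of 11.0 to 18.7 in the E9.25 WT and 25.9 to 34.7 in the E10.5 WT libraries, with no overlap. It rose by 0.99 on the log2 scale (SE 0.18, limma adjusted p = 0.00331). Sall4 was at 26.0 to 41.5 and at 12.98 to 20.1, again with no overlap, and fell by 0.84 on the log2 scale (SE 0.20, limma adjusted p = 0.00934). Sall1 (log2 fold change 0.45, 95% interval -0.14 to 1.04) and Sall3 (0.14, -0.29 to 0.57) did not pass. Thus 1 of 4 members rose, against 38.1% of 15444 genes, and 1 fell, against 10.6%. The median gene was 0.34 higher at E10.5, and relative to it Sall2 changed by 0.65, Sall4 by -1.18, Sall1 by 0.11 and Sall3 by -0.20. Of all genes called, 78.3% rose with TPM as deposited, 46.7% with quantile normalization and 49.3% with size factors. Sall2 and Sall4 kept their directions and calls under all 10 other settings (0.62 to 1.04 and -1.17 to -0.70) and with each library left out, the doubted E9.25 WT replicate 2 included (0.79 and -1.002). Leaving out that library moved Sall1 to 0.14 and Sall3 to -0.04. The sign for Sall3 also turned with quantile normalization (-0.33), with size factors (-0.17) and with sample quality weights (-0.0037).

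In Gli3-/- buds all 4 members passed between the stages, 3 upward, against 15.8% of 15434 genes, and 1 downward, against 9.17%. Sall1 was between 14.0 and 25.0 at E9.25 and between 33.5 and 55.9 at E10.5 (log2 fold change 1.13, standard error 0.21, limma adjusted p = 0.00302). Sall3 was between 9.48 and 17.7 and then between 26.2 and 32.3 (1.11, standard error 0.20, adjusted p = 0.00250). Both passed under every setting and with every library left out. Sall2 rose by a log2 fold change of 0.61 (limma adjusted p = 0.0290), and its call held in 4 of 7 leave-one-out fits but not without the filter on low TPM (adjusted p = 0.0743). Sall4 fell by 0.52 on the log2 scale (limma adjusted p = 0.0498), and its call held in only 1 of them. It was also lost under 4 of 10 other settings, with a pseudocount of 0.1 (limma adjusted p = 0.0533), without the filter on low TPM (0.111), without the eBayes trend (0.0666) and in a single model of the 14 libraries (0.0665). This comparison shares its libraries with the genotype comparisons above. Of all genes called, 63.2% rose with TPM as deposited, against 51.7% with quantile normalization and 52.2% with size factors.

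The gene with the profile most like that of Sall1 was Sall3, and the reverse also held, out of 16367 other genes. Likeness was measured as the root mean square difference of the log2(TPM + 1) profiles over the 14 libraries, each centered on its own mean, and was 0.22 between Sall1 and Sall3, against a median of 0.69 between Sall1 and all genes. This is a description, since the libraries share groups and scaling. Rnd3, a small GTPase gene, was also among the 3 nearest to Sall1 (0.29), and Cyp1b1, a cytochrome P450 gene, among the 3 nearest to Sall3 (0.25). Cyp1b1 averaged 2.97, 4.82, 3.36 and 10.51 TPM in E9.25 WT, E9.25 Gli3-/-, E10.5 WT and E10.5 Gli3-/- buds. Sall4 was nearest to Fgf10, the mesenchymal FGF of limb outgrowth (0.17), which averaged 23.9, 30.3, 12.2 and 26.2 TPM in the same order, followed by Vars, a valyl-tRNA synthetase (0.20), and D130058E05Rik (0.20). Sall2 was nearest to Vgll4, a TEAD cofactor (0.09), Zfp629 (0.09) and Farp1 (0.09), none of them family members. Sall4 lay farther from Sall1 (0.78), Sall3 (0.69) and Sall2 (0.86) than the median gene did (0.67).

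Among annotated neighbors within 20 kb, the RNAs beside Sall3 were low. Gm27239, which lies 878 bases from Sall3 on the other strand, averaged 0.827, 2.31, 1.39 and 6.49 TPM in the 4 groups in the order above, and was upregulated at E10.5 with loss of Gli3 (log2 fold change 1.62, standard error 0.26, limma adjusted p = 0.00904). Gm27238, which overlaps Sall3 on the same strand, averaged 0.226, 1.07, 0.773 and 2.20 and did not pass at E10.5 (0.84, adjusted p = 0.0526). Beside Sall2, Mettl3 and Tox4 did not pass in E10.5 mutants (-0.12 and -0.07), nor did Atp9a beside Sall4 (-0.11).

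Promoter sequences of RefSeq (GRCm38.p6, windows of 300 bases around a transcript start, read 5′ to 3′ on the gene's minus strand) were matched for 2 of the 4 members, Sall1 with 3 starts and Sall2 with 2. They are shown because Sall1 rose with loss of Gli3 while Sall2 did not pass. CpG dinucleotides are in capitals.
Sall1, chr8:89044113-89044412: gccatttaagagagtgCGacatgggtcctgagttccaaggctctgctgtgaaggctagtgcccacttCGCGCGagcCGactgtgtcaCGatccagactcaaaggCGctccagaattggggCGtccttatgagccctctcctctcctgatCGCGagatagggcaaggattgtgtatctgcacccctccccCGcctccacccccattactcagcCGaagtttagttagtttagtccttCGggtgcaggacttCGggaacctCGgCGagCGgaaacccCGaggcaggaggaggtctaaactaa
Sall2, outer start, chr14:52328621-52328920: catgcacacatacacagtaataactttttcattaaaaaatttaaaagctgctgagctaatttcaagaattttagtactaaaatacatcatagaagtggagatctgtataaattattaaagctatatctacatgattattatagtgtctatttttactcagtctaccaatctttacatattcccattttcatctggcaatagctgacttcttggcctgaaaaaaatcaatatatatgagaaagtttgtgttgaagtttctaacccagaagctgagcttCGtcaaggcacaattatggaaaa
Sall2, inner start, chr14:52316274-52316573: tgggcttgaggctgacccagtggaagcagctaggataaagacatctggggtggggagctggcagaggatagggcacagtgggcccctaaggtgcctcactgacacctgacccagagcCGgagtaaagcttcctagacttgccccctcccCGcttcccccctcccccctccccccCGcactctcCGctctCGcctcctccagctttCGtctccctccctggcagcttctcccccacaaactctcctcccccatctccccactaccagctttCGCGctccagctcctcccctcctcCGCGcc
The letters GACCACCCA, the GLI consensus site, were searched on both strands, as was the shorter run ACCACCC that lies within it. Neither occurred in any of the 5 windows, and they occurred in 0.253% and 4.61% of 32851 RefSeq promoters of the same length. A match or its absence in so short a window says nothing about binding elsewhere. TATAAA occurred once, in the outer Sall2 window, and in 13.6% of all promoters. The Sall1 window shown held 18 CpG (57.3% G and C), and the other 2 Sall1 windows held 27 and 39. The outer Sall2 window held 1 (30.3% G and C) and the inner one 10 (65.0%). The median over all promoters was 7.

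Genes that act with the Sall family were counted from lists. NuRD subunits, the deacetylase and remodeling partners of SALL proteins, did not pass in either genotype comparison. At E10.5 0 of 13 tested passed, against 1.84% of all genes upregulated and 2.93% downregulated (median log2 fold change 0.01 against -0.02 for all genes). At E9.25 0 of 13 passed, against 0.136% (median 0.29 against 0.23). Leaving out the doubted library gave 0 of 13 there, against 0.123% (0.28 against 0.14). With shares this low, 0 of 13 shows nothing particular to NuRD. Between stages in WT, 7 of 13 rose, against 38.1% of all genes, and 1 fell, against 10.6%, with Chd3 (3.51), Gatad2b (1.12), Chd4 (0.77) and Mbd2 (0.46) the largest. In Gli3-/- buds 1 of 13 rose, Chd3 (2.16), against 15.8% of all genes, and 1 fell, Rbbp7 (-0.46), against 9.17%. Leaving out the doubted library gave 5 of 13 rising and 0 falling in WT, against 33.6% and 9.65% of all genes. With all libraries, the median NuRD gene was at 0.25 in WT, against 0.34 for all genes. Without the doubted library the medians were 0.24 and 0.25. In Gli3-/- buds the median NuRD gene was at 0.12, against 0.06 for all genes.

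Of 12 limb patterning genes linked to Sall function, 7 were upregulated with loss of Gli3 in the E10.5 buds, against 1.84% of all genes, and 3 downregulated, against 2.93%, with a median log2 fold change of 1.12 against -0.02 for all genes. Hoxd13 (3.99) and Hoxa13 (2.60), the distal Hox genes, rose, and Irx3 (-3.12) and Irx5 (-2.71), anterior proximal homeobox genes, fell. Shh, named after its values were seen, also rose (2.49, limma adjusted p = 0.0134). It was at a TPM of 0.0 in every E10.5 WT library and at 1.17 to 8.67 in Gli3-/- libraries. The part of Shh, or of posterior tissue in the mutant pools, in the Sall results was not tested. At E9.25, 0 of the 10 tested passed, against 0.136% of all genes (median 0.18 against 0.23 for all genes). In WT between stages 7 of 11 rose (38.1% of all genes) and 2 fell (10.6%), led by Grem1 (2.54), Hoxa13 (1.91), Gli3 (1.34) and Fgf10 (-0.92), and in Gli3-/- buds 7 of 12 rose (15.8%) and 2 fell (9.17%), led by Hoxd13 (5.57), Hoxa13 (4.55), Grem1 (3.52) and Fgf8 (2.76). Their interaction passed for 6 of 12 (2.13% of all genes), led by Hoxd13 (4.74), Irx3 (-3.39), Irx5 (-2.75) and Fgf8 (2.67). This list was chosen with earlier results of these data known. It includes Gli3, the targeted gene. It also includes Hand2, Hoxd13 and Grem1, which the study reports as upregulated in these E10.5 Gli3-/- buds. The excess over all genes is therefore a description and no test of genes linked to Sall. Leaving out the doubted library left the WT stage counts at 7 and 2 and the interaction count at 6. At E9.25 1 gene then passed, Gli3 itself (-1.22), against 0.123% of all genes.

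Among HH response genes, Ptch1 rose with loss of Gli3 both in E10.5 (1.58) and in E9.25 buds (2.28, or 1.89 without the doubted library), against 1.84% and 0.108% of all genes. Gli1 (0.33, limma adjusted p = 0.618) and Hhip (0.29, adjusted p = 0.519) did not pass at E10.5. At E9.25 both were below the filter on low TPM and were not tested. By in situ hybridization the study did not detect Ptch1 in E9.25 limb buds of either genotype. It raised flank tissue in the dissection as a possible source of RNAs higher in E9.25 Gli3-/- buds, which was not tested here. Between stages, Gli1 rose in WT (2.23) and in Gli3-/- buds (1.87), and Ptch1 rose in WT (0.94). Leaving out the doubted library gave 2.16 for Gli1 and 0.55 for Ptch1 in WT, both still called. Of 12 pluripotency and early progenitor genes other than Sall4, 2 passed the filter on low TPM between stages, and both fell (10.6% of all genes fell in WT and 9.17% in Gli3-/-). These RNA-binding factors were Lin28a (-3.18 in WT and -3.03 in Gli3-/-) and Lin28b (-1.29 and -1.03). In WT they changed by -3.17 and -1.51 without the doubted library.

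Markers of forelimb mesenchyme (Prrx1, Tbx5, Lhx9, Fgf10 and Twist1) summed to 408 to 830 TPM and hindlimb markers to 1.82 to 9.40 TPM, and 1 of 6 neural tube markers (Tubb3) reached a mean TPM of 1. Nephric mesoderm markers, which matter because Sall1 is also a kidney gene, summed to 11.9 to 13.5 TPM in E10.5 WT and 11.6 to 16.4 in E10.5 Gli3-/- buds, with overlap. At E10.5 the summed forelimb mesenchyme markers were lower in Gli3-/- buds (527 to 545 against 691 to 830). Within that list Lhx9 (log2 fold change -0.93), Twist1 (-0.65) and Prrx1 (-0.56) were downregulated. Fgf10 (1.05) was upregulated, and Tbx5 (0.13) did not pass. The summed surface ectoderm markers were higher in E10.5 Gli3-/- buds (267 to 301 against 178 to 217). That rise lay in Fgf8 (131 to 171 against 50.4 to 69.0 TPM): the other 5 ectoderm markers overlapped (110 to 136 against 109 to 159), and the median log2 fold change of the list was -0.18. The summed muscle progenitor markers were lower in the E10.5 Gli3-/- buds (25.4 to 34.95 against 39.1 to 47.6). Within that list Met (-0.57) was downregulated. Pax3 (-0.60, limma adjusted p = 0.064) and Lbx1 (-0.12, adjusted p = 0.70) did not pass, and Pax7 was too low to be tested. At E9.25 the summed flank and lateral plate markers were higher in Gli3-/- buds (73.9 to 206 against 24.3 to 59.4). The sums of endothelial markers (75.7 to 116 against 40.5 to 62.5), nephric markers (11.3 to 16.6 against 7.45 to 11.1) and hindlimb markers (4.86 to 8.65 against 1.82 to 4.22) were also higher there. So was the sum of the 5 ectoderm markers other than Fgf8 (162 to 323 against 89.3 to 155), and that of neural tube markers was lower (2.70 to 4.52 against 5.90 to 12.5). None of these ranges overlapped, with or without the doubted library. Single markers differed. The nephric rise lay mainly in Lhx1 (mean TPM 1.645 in WT and 6.39 in Gli3-/-). Six2 and Pax2 rose at low levels, while Wnt11 (7.32 and 6.501) and Pax8 (0.219 and 0.191) were lower. Among hindlimb markers Isl1 (1.52 and 4.16) and Pitx1 (1.43 and 3.05) rose, and Tbx4 (0.249 and 0.008) was lower. No tested nephric, hindlimb, endothelial, ectoderm or neural tube marker passed at E9.25. In the flank list Foxf1 (log2 fold change 3.68) and Gata4 (2.87) were upregulated with all libraries, against 0.108% of all genes. Tbx18 was lower (-0.35), and neither it nor the other tested flank markers passed. The E9.25 ectoderm difference lay mainly in Krt8 (mean TPM 35.3 in WT and 96.7 in Gli3-/-) and Krt18 (35.2 and 104). Epcam (31.1 and 32.4), Trp63 (17.7 and 18.7) and Cdh1 (11.2 and 14.3) differed little, and Fgf8 was lower (56.4 and 22.7). The part of these differences in the Sall results was not tested.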

How the data were processed

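RNA was sequenced from 14 pools of forelimb buds. TRIzol-extracted RNA was read as single ends of 100 bases and aligned with HISAT2 by the authors. The authors deposited, per gene, the coverage (mean read depth per base), FPKM and TPM values. The submitters' processing notes name mm10; the tool that made the values and the handling of shared reads are not given in the sources used here. TPM of 1 gene ID was summed over its lines, and FPKM served an alternative for the shares. DESeq2 was not run because the tables hold no counts.

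For each comparison, limma 3.58.1 (R 4.3.3) tested the genes that reached a TPM of 1 in 3 of its libraries (log2(TPM + 1), trended eBayes, two-sided, Benjamini-Hochberg over all genes tested, threshold 0.05). Fold changes on this scale understate changes of low genes. The procedure was tested on simulated data. The family, its members and all lists were chosen with earlier results of these data known. Named genes are the members, Gli3, the 3 nearest profiles per member, the list genes that passed (up to 4 by size per list and comparison) and neighbors within 20 kb at a TPM of 1 in 3 libraries. A gene that this rule names is not reported here. Nothing in the sources ties libraries to separate litters, so that p-values measure the spread between these pools.

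The alternatives tried changed the pseudocount (0.1), the filter (none, or a TPM of 5), the eBayes trend, the scaling (quantile or size factors), the sample weights, the model (all 14 libraries, or a replicate block) and the libraries (each left out).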

Additional observations from a re-analysis of the deposited data

Results flagged for a closer look

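In E10.5 WT replicate 4, Sall4 stood apart from the other 3 libraries of its group, at 3.81 on the log2(TPM + 1) scale (a TPM of 12.98). Its gap to the nearest library was 0.894 of the range of the group, above the 95% critical value of Dixon's test for 4 samples. It was the only library singled out among the 8 combinations of a member and a group of 4, and chance gives such a result in about 1 of 20 groups. Without this library Sall4 was still upregulated with loss of Gli3 at E10.5 (log2 fold change 0.71, limma adjusted p = 0.00367) and still fell between stages in WT buds (-0.70, adjusted p = 0.0208).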

How the results depend on the processing

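The number of Sall genes called with loss of Gli3 was 3 at E10.5 and 0 at E9.25, and between stages in WT it was 2. Without the filter on low TPM it was 2 at E10.5, and no other alternative changed these 3 counts. Between stages in Gli3-/- buds 4 genes passed, 2 without the filter (Sall2 and Sall4 lost), and 3 each with a pseudocount of 0.1, without the eBayes trend and in the single model of 14 libraries (Sall4 lost each time). With each library left out in turn the count there ranged from 2 to 4. For the interaction 0 genes passed, and Sall3 was the 1 that passed with quantile normalization, 1 with size factors and 1 with sample quality weights. Of 360 recomputed log2 fold changes of the members, 333 kept both direction and side of the threshold, 15 lost the call, 3 gained it and 9, all of Sall2 at E10.5 or Sall3 between stages in WT and none called in either fit, changed sign. The cause was not tested. Replicate numbers gave no clear pairing of the samples. For the genotypes at E10.5, same-numbered libraries had a mean r of their deviations of -0.05 by title numbers, against 0.02 for other pairs. By file numbers it was 0.17 (0.05 to 0.29), against -0.06 for other pairs. At E9.25 it was -0.17. With 3 pairs each, a weak pairing by file numbers cannot be settled. With the title numbers as a replicate block, the members called were 3, 0, 2, 4 and 0 in the 5 comparisons, in the order E10.5, E9.25, stage in WT, stage in Gli3-/- and interaction. The file numbers, fitted for all but E9.25, gave 3, 2, 4 and 0 in that order. Over all genes, the number called with loss of Gli3 was 747 at E10.5 (301 to 680 with a library left out, 164 to 1356 under other settings) and 20 at E9.25 (2 to 196, and 0 to 1185), between stages 7520 in WT (5139 to 8305, and 4699 to 8556) and 3853 in Gli3-/- (2129 to 4326, and 2876 to 6520), and 348 for the interaction (150 to 1433, and 42 to 830). Of the genes called at E9.25, 80.0% were higher in Gli3-/-, against 56.7% with quantile normalization and 61.5% with size factors, and for the interaction 22.4% were positive, against 47.5% and 36.7%. Shares from FPKM equal those from TPM by construction. A TPM near 1 rests on 20.7 to 29.3 reads per kilobase, and all members lay well above it.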
